A study of Mus musculus with 12 samples.

Results

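Fibroblast growth factor (FGF) receptors, the ligand Fgf18 and the feedback inhibitors of the pathway were followed across the growth plate of the embryonic mouse tibia. The 10 genes were chosen by name as Fgfr1, Fgfr2, Fgfr3, Fgfrl1, Fgf18, Spry1, Spry2, Spry4, Spred1 and Spred2, out of 18193 genes named on the array. They are covered by 31 of 45101 probe sets, of which 24 reached a mean signal of 50 or more in any zone, and each of the 10 genes kept at least 1 probe set. Tibiae of CD1 mouse embryos at embryonic day 15.5 were cut by hand into zone I at the ends of the bone, zone II next to it and zone III in the middle. The study describes zone I as resting and proliferating cells, zone II as mostly prehypertrophic and hypertrophic chondrocytes, and zone III as the most mature hypertrophic chondrocytes together with the mineralized part of the bone. No embryo was treated and no allele was altered. Segments were pooled within a litter, and each zone has 4 arrays lettered A to D, 12 in all, which the study describes as 4 litters, each a separate experiment. A value therefore stands for a pool of embryos and of all cell types in a segment, and fewer cells of a type cannot be told apart from less RNA per cell.

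FGFs bind receptor tyrosine kinases that signal through RAS and ERK, among other routes, and the Sprouty (Spry) and Spred proteins restrain that signal. Transcription of Sprouty genes is itself often raised by FGF signalling, which closes a negative feedback loop. In long bones FGFR3 is known as a brake on chondrocyte proliferation, and activating changes of the human gene cause achondroplasia. FGFR2 is known from perichondrium and periosteum, FGFR1 from hypertrophic chondrocytes and bone-forming cells, and FGF18 as a ligand made largely by the perichondrium.

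Of the 10 genes, 6 had their lowest mean signal in zone II, namely Fgfr1 and the 5 intracellular inhibitors Spry1, Spry2, Spry4, Spred1 and Spred2. Over all 11808 genes tested 41.4% had their lowest mean there. Fgfr3 and, by a difference from zone I that was not called and turned in sign under other scalings, Fgfrl1 had their highest mean in zone II, which 30.0% of all genes did, and Fgfr2 and Fgf18 declined in mean signal over zones I, II and III. In all, 3 of the genes had their highest mean in zone I (Fgfr2, Fgf18 and Spry2, 31.6% of all genes), 5 in zone III (Fgfr1, Spry1, Spry4, Spred1 and Spred2, 38.4%), and 4 had their lowest in zone III (Fgfr2, Fgfr3, Fgfrl1 and Fgf18, 35.1%). The values are linear signals scaled by the authors to a common mean on every array, given for the brightest probe set of each gene, and differences between zones are limma's log2 differences, the later zone minus the earlier. A gene was called at a Benjamini-Hochberg adjusted p under 0.05 over all 22255 probe sets that passed the filter, with no fold threshold. The signals of different probe sets are not on 1 scale, so that levels are compared between zones and not between genes.

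**Figure D1:**
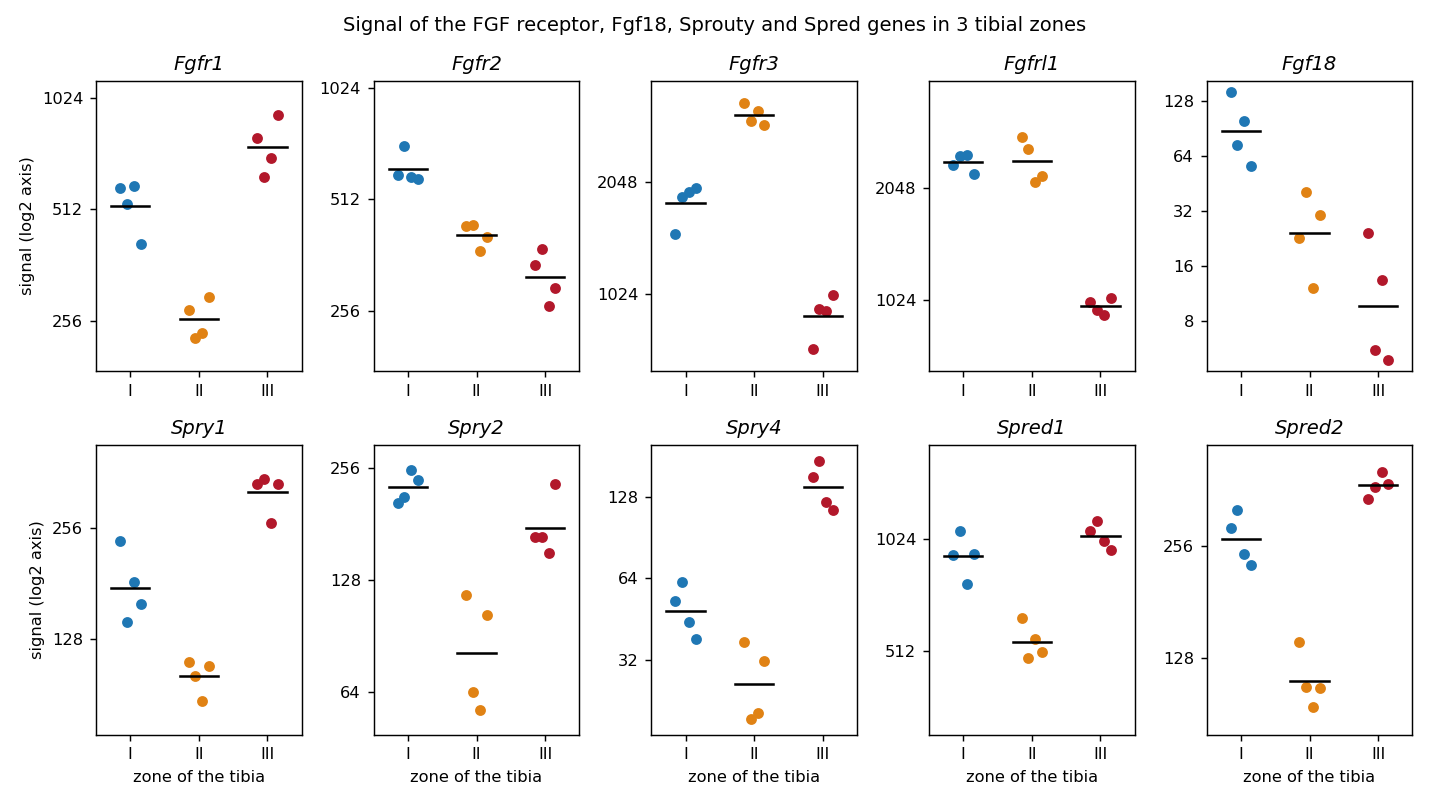
Signal intensity of the 10 genes on a log axis, 1 panel per gene, with the 4 arrays of zones I, II and III as dots and a line at their geometric mean. Zone II lies lowest for Fgfr1, Spry1, Spry2, Spry4, Spred1 and Spred2 and highest for Fgfr3, while Fgfr2 and Fgf18 decline over the 3 zones.

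In the comparison of zone II with zone I, 1 of the 10 genes rose (Fgfr3), 8 fell and 1 did not pass (Fgfrl1), where 16% of all tested genes rose and 25.4% fell. Their median log2 difference was −0.84, against −0.09 over all genes. In zone III compared with zone II, 6 rose, 4 fell and 0 did not pass, where 30.8% of all genes rose and 22.7% fell. The median was 1.03, against 0.08 over all genes. Between the outer zones, zone III minus zone I, 4 rose, 4 fell and 2 did not pass, where 21.6% of all genes rose and 21.7% fell, with a median of −0.09 against −0.01. The arrays of 2 zones did not overlap for 9 genes in zone II against zone I (37.3% of all genes), 8 in zone III against zone II (52.6%) and 8 in zone III against zone I (45.5%). The 3 comparisons share arrays, so the fall into zone II and the rise out of it both rest on the same 4 zone II arrays. Within each of the 3 fluidics runs every called difference of the 10 genes kept its direction, except Fgf18 in zone III minus zone II, which kept it in 2 of 3. For Spred2 the within-run values were −1.28 to −1.11 in zone II minus zone I and 1.29 to 1.89 in zone III minus zone II, and for Fgfr3 they were 0.56 to 1.00 and −2.20 to −1.60.

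**Figure D2:**
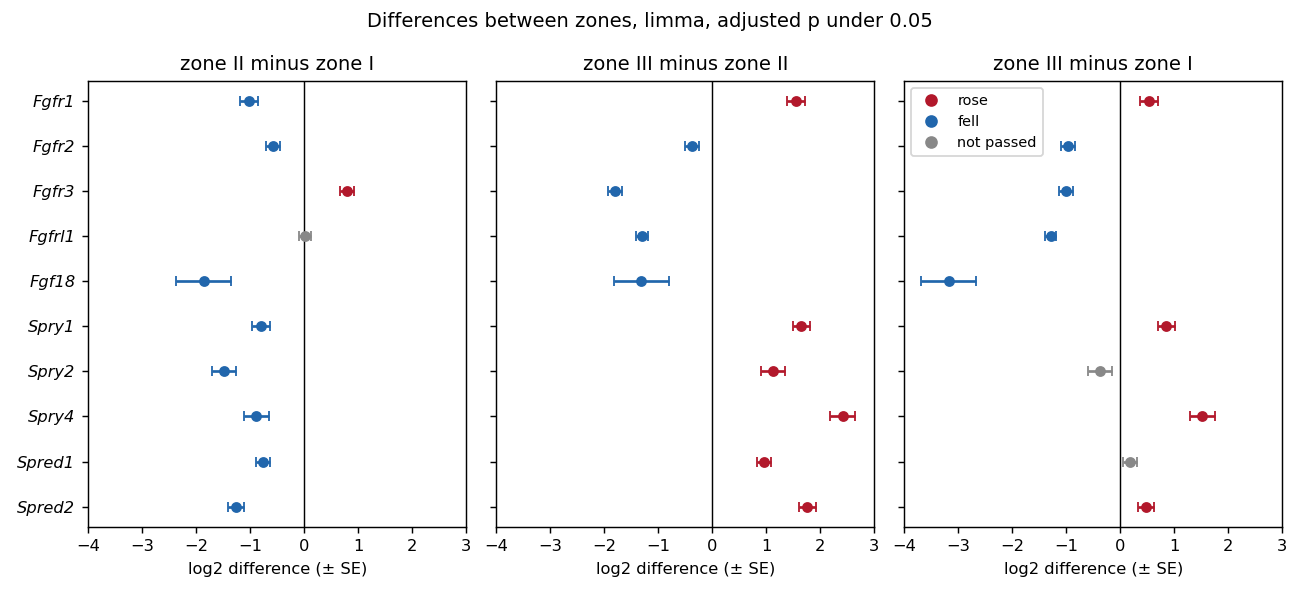
Log2 difference of each of the 10 genes in the 3 zone comparisons, the later zone minus the earlier, with bars of ± 1 SE from limma and colours for genes that rose, fell or did not pass at an adjusted p under 0.05. In zone II minus zone I only Fgfr3 lies above 0 with a call, and in zone III minus zone II Fgfr1 and the 5 inhibitors lie above 0 while Fgfr2, Fgfr3, Fgfrl1 and Fgf18 lie below it.

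The arrays themselves were compared before the genes. Median signals of the arrays lay between 32.4 and 43.3, and each of the 3 fluidics runs of 4 arrays held all 3 zones. For the Gapdh control probes the ratio of 3′ to 5′ signal lay between 1.98 and 2.28 in zone III, against 1.25 to 1.76 on the remaining arrays. For actin it lay between 1.70 and 2.02 in zone III, against 2.09 to 3.23 elsewhere. Chondrocyte markers summed to a signal of 17993 to 23704 in zone I, 28335 to 31097 in zone II and 9294 to 11989 in zone III, and those of hypertrophic chondrocytes to 483 to 682, 9817 to 11311 and 5629 to 6931 in the same order of zones. Osteoblast markers summed to 1139.6 to 1616, 1476 to 2532 and 8756 to 9576, and osteoclast markers to 637 to 753, 626 to 1600.0 and 11426 to 13649. For each of the 9 marker lists used, array A held the highest sum of zone II.

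Fgf18, the ligand, had its highest signals at the ends of the bone. The signal was 143, 73.2, 98.8 and 56.1 on zone I arrays A to D, 22.7, 40.5, 12.2 and 30.3 in zone II, and 24.2, 5.59, 13.5 and 4.90 in zone III. Every zone I array lay above every array of the other zones, zones II and III overlapped, and outside zone I all 8 values were under 50, where a fold depends on the background. It fell 3.62-fold in zone II relative to zone I (log2 difference −1.86 ± 0.51 SE, limma adjusted p = 0.0129) and 8.99-fold in zone III relative to zone I (−3.17 ± 0.51, adjusted p = 0.00034). With 16 added to every signal these differences were −1.34 and −1.95 (limma adjusted p = 0.00151 and 5.4e-05), smaller than without it. In the fit without a filter both were called, with larger adjusted p (limma, 0.0392 and 0.00172). The further fall in zone III relative to zone II, of −1.31 ± 0.51, only just passed (limma adjusted p = 0.0497). It did not pass without zone II array A, B or D or zone III array B, C or D (−0.98 to −1.47 over these fits, adjusted p = 0.0525 to 0.15), nor with the added 16 (−0.60, adjusted p = 0.0817), and within the 3 runs it ranged from −1.99 to 0.09. The perichondrial source known for this ligand makes the fibrous markers the values to set beside it: 7 markers of perichondrium and fibrous tissue summed to 9676 to 12677 in zone I, 2455 to 4464 in zone II and 6039.8 to 7162 in zone III. Of these 7 markers, 6 rose and 0 fell in zone III relative to zone II, and 1 rose and 5 fell in zone III relative to zone I. The part of this tissue in the Fgf18 signal was not tested.

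Fgfr2, a receptor with known roles in bone-forming cells, declined in the same order. Its signal was 596, 713, 588 and 581 in zone I, 435, 437, 372 and 406 in zone II, and 339.9, 377, 264 and 295 in zone III. Zone I stood clear of the other zones, while the highest zone III array lay just above the lowest zone II array. The fall was 1.5-fold in zone II relative to zone I (−0.58 ± 0.13 SE, limma adjusted p = 0.0038) and 1.95-fold in zone III relative to zone I (−0.97 ± 0.13, adjusted p = 8.2e-05). Between zones III and II it was 1.3-fold (−0.38 ± 0.13, limma adjusted p = 0.0273), a call that did not hold without zone II array A or B or zone III array C or D (−0.30 to −0.36, adjusted p = 0.0615 to 0.0918) and that turned to 0.13 (adjusted p = 0.54) when arrays were centred on ribosomal protein genes. A second tested probe set of Fgfr2 gave −0.35, −0.26 and −0.60 for zone II minus I, III minus II and III minus I, and only the last passed (limma adjusted p = 0.0556, 0.12 and 0.00276).

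Fgfr3, the receptor that restrains chondrocyte growth, had its peak in zone II and, like Fgfr2 and Fgf18, its lowest mean in zone III. The signal was 1486, 1873, 1923 and 1977 in zone I, 3344, 2993, 3191 and 2922 in zone II, and 728, 934, 918 and 1017 in zone III, with no overlap between any of the zones. Fgfr3 rose 1.72-fold in zone II relative to zone I (0.79 ± 0.13 SE, limma adjusted p = 0.00059), fell 3.48-fold in zone III relative to zone II (−1.80 ± 0.13, adjusted p = 3.8e-07) and was 2.02-fold lower in zone III than in zone I (−1.01 ± 0.13, adjusted p = 6.1e-05). Its other probe set was called in the same directions with larger differences, at 1.35, −2.77 and −1.42. The rise into zone II did not pass with ribosomal centring (0.46, limma adjusted p = 0.0699), a scaling that moves the median of all genes in that comparison to −0.42. The sum of the chondrocyte markers was also highest in zone II and lowest in zone III, as given above, and its part in the Fgfr3 profile was not tested.

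Fgfrl1 encodes a receptor-like protein that binds FGFs but lacks the kinase domain. Its signal was 2373, 2501, 2516 and 2238 in zone I, 2811, 2613, 2129 and 2207 in zone II, and 1009, 959, 932 and 1035 in zone III. Zones I and II overlapped, and every zone III array lay below all of them. The difference between zones II and I was 0.01 with a 95% interval of −0.23 to 0.26 (limma adjusted p = 0.95), and the other probe set gave −0.42 without passing (adjusted p = 0.19). The sign turned without a call with quantile normalization (−0.27, limma adjusted p = 0.0542) and ribosomal centring (−0.32, adjusted p = 0.0826). In zone III it fell 2.47-fold relative to zone II (−1.30 ± 0.11 SE, limma adjusted p = 1.4e-06) and 2.45-fold relative to zone I (−1.29 ± 0.11, adjusted p = 2.2e-06), and the other probe set gave −0.94 and −1.36 with calls for both. Fgfrl1 thus shared the fall in zone III with Fgfr3 but had no called change between zones II and I.

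Fgfr1, the receptor known from hypertrophic chondrocytes and bone-forming cells, had its lowest signals in zone II. It read 584, 528, 591 and 414 in zone I, 274, 231, 237 and 297 in zone II, and 797, 625, 706 and 922 in zone III, and the zones did not overlap. Fgfr1 fell 2.03-fold in zone II relative to zone I (−1.02 ± 0.16 SE, limma adjusted p = 0.0003) and rose 2.92-fold in zone III relative to zone II (1.55 ± 0.16, adjusted p = 5.3e-06). Its remaining probe sets were called in the same directions, at −1.34 and −0.76 and at 1.85 and 1.38. The 1.44-fold rise in zone III relative to zone I (0.53 ± 0.16, limma adjusted p = 0.0176) was less steady: it gave 0.41 (adjusted p = 0.0523) without zone I array D and 0.43 (adjusted p = 0.0583) without zone III array D, and within the 3 runs it ranged from 0.08 to 0.96.

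Because the 3 receptors were read on the same arrays, their log2 ratio within an array was compared between zones, which removes the scaling of the array. Only the change of such a ratio can be read, since the probe sets differ in brightness. The log2 ratio of Fgfr3 to Fgfr1 was 1.35, 1.83, 1.70 and 2.26 in zone I, 3.61, 3.70, 3.75 and 3.30 in zone II, and −0.13, 0.58, 0.38 and 0.14 in zone III. The ratio moved towards Fgfr3 by 3.50-fold in zone II relative to zone I and towards Fgfr1 by 10.2-fold in zone III relative to zone II, and no arrays of different zones overlapped (exact two-sided permutation test, p = 0.0286 each, the smallest that 4 against 4 arrays allow, 0.0367 adjusted over the 9 ratio comparisons). If the letters pair arrays by litter, which the labels do not say, the paired exact permutation test of 4 pairs cannot give a p below 0.125. Between the outer zones the shift towards Fgfr1 in zone III was 2.91-fold, with the same p. In each of these comparisons the arrays of Fgfr3 and those of Fgfr1 were already separated, in opposite directions. The separation of their ratio, and with it this p, was therefore fixed by the single-gene values and adds no evidence to them. Only the size of the shift is new. The ratio of Fgfr3 to Fgfr2 averaged 1.55 ± 0.22, 2.92 ± 0.14 and 1.5 ± 0.35 over zones I, II and III (SD, n = 4). It was thus higher in zone II than in either neighbour, whereas zones III and I differed by −0.05 (exact permutation test, p = 0.857). The ratio of Fgfr1 to Fgfr2 averaged −0.24 ± 0.26, −0.67 ± 0.19 and 1.26 ± 0.39 in zones I, II and III. Zone III exceeded zone II by 1.93 and zone I by 1.49 with the smallest p, and zone II lay 0.44 below zone I without passing (difference −0.44, exact permutation test, p = 0.0571, adjusted p = 0.0643). The smallest p was likewise fixed by the single genes for Fgfr3 to Fgfr2 in zone II against zone I. The same holds for Fgfr1 to Fgfr2 in zone III against zone I.

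**Figure D3:**
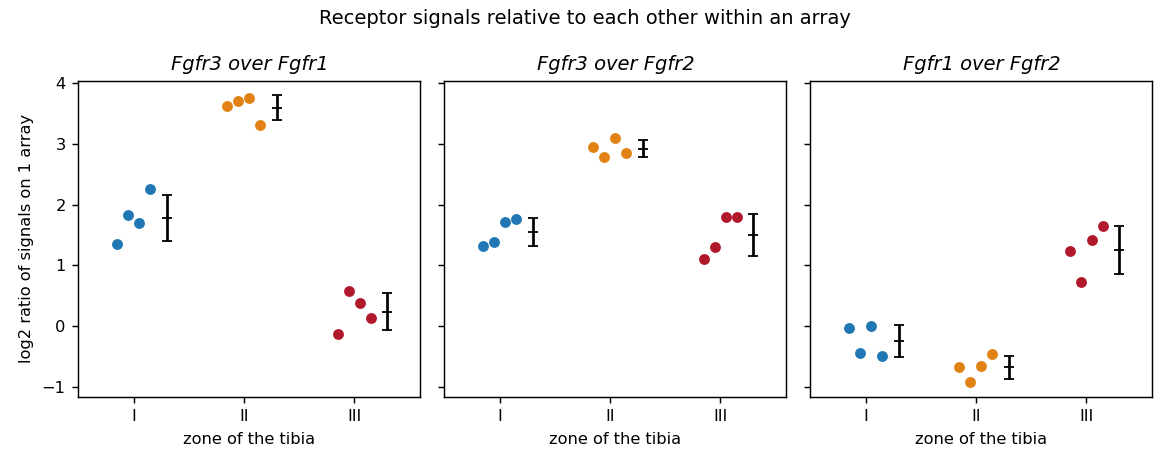
Log2 ratio of the signals of pairs of receptor genes within each array, with the 4 arrays of zones I, II and III as dots and the mean ± SD beside them. The ratio of Fgfr3 to Fgfr1 lies between 3.30 and 3.75 in zone II and between −0.13 and 0.58 in zone III.

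Spry1, Spry2 and Spry4, whose products act on receptor to RAS signalling, were each lowest in zone II. Spry1 read 235, 142, 182 and 159 in zone I, 111, 102, 87.2 and 108 in zone II, and 335, 347, 264 and 336 in zone III, with no overlap between zones. It fell 1.74-fold in zone II relative to zone I (−0.80 ± 0.16 SE, limma adjusted p = 0.00207), rose 3.14-fold in zone III relative to zone II (1.65 ± 0.16, adjusted p = 3.9e-06) and was 1.81-fold higher in zone III than in zone I (0.85 ± 0.16, adjusted p = 0.00108). Spry2 read 206, 215, 254 and 239 in zone I, 117, 63.9, 57.2 and 103 in zone II, and 167, 167, 151 and 232 in zone III. Zone II stood apart below, and zones I and III overlapped. Spry2 fell 2.79-fold in zone II relative to zone I (−1.48 ± 0.22, limma adjusted p = 0.00026) and rose 2.17-fold in zone III relative to zone II (1.12 ± 0.22, adjusted p = 0.00118), and zone III minus zone I gave −0.37 with a 95% interval of −0.85 to 0.12 (adjusted p = 0.22). Spry1 and Spry4 were therefore higher at the bone centre than at its ends, while no such rise was called for Spry2. Spry4 lay near the floor of 50 in zone I and under it in zone II, with 52.6, 61.9, 44.3 and 38.1 in zone I, 37.2, 19.4, 20.4 and 31.7 in zone II, and 152, 174, 123 and 115 in zone III. Its means were 49.2, 27.2 and 141, so that it passed the filter through zone III alone. The zones did not overlap, although the highest zone II array lay just below the lowest zone I array. Spry4 rose 5.33-fold in zone III relative to zone II (2.41 ± 0.23, limma adjusted p = 3.5e-06) and 2.88-fold relative to zone I (1.52 ± 0.23, adjusted p = 0.00021), and fell 1.85-fold in zone II relative to zone I (−0.89 ± 0.23, adjusted p = 0.00967). These folds depend on the background. With 16 added to every signal the differences of Spry4 were smaller, at 1.87, 1.27 and −0.60 (limma adjusted p = 5.6e-07, 3.4e-05 and 0.0119). Its other tested probe sets gave 3.23 and 4.35 for zone III minus II and 2.95 and 2.34 for zone III minus I, all called. Their zone II signals lay between 6.42 and 25.0. For zone II minus I they gave −0.28 and −2.02, of which only the second passed (limma adjusted p = 0.66 and 0.00025).

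Spred1 and Spred2, membrane-associated relatives of the Sprouty proteins that act with neurofibromin on RAS, followed the same course. Spred1 read 927, 1081, 776 and 937 in zone I, 626, 489, 552 and 508 in zone II, and 1079, 1145, 1015 and 958 in zone III, so that zone II lay below the other zones and these overlapped. It fell 1.71-fold in zone II relative to zone I (−0.77 ± 0.13 SE, limma adjusted p = 0.0005) and rose 1.93-fold in zone III relative to zone II (0.95 ± 0.13, adjusted p = 5.2e-05), and zone III minus zone I gave 0.18 with a 95% interval of −0.10 to 0.46 (adjusted p = 0.29). Of its 6 other tested probe sets, 5 were called in the same direction in both of the first comparisons and 0 were called between zones III and I. Spred2 read 286, 321, 244 and 228 in zone I, 141, 107, 94.1 and 106 in zone II, and 344, 370.1, 406 and 378 in zone III, without overlap. It fell 2.42-fold in zone II relative to zone I (−1.27 ± 0.15, limma adjusted p = 3.4e-05) and rose 3.38-fold in zone III relative to zone II (1.76 ± 0.15, adjusted p = 1.1e-06). The rise of 0.48 ± 0.15 in zone III relative to zone I (1.4-fold, limma adjusted p = 0.0199) did not pass without zone I array C (0.44, adjusted p = 0.0547) or D (0.41, adjusted p = 0.0591) or zone III array C (0.44, adjusted p = 0.0573). Its other tested probe set gave −0.49, 0.74 and 0.25, and of these only zone III minus II passed (limma adjusted p = 0.0668, 0.00721 and 0.35).

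**Figure D4:**
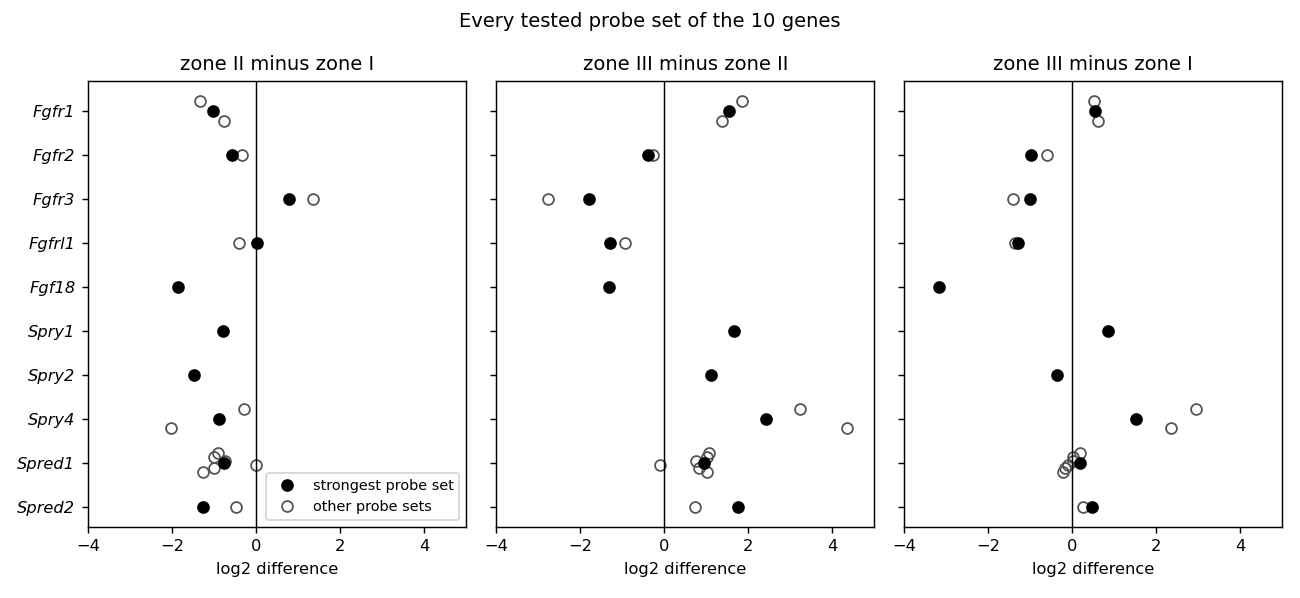
Log2 difference of every tested probe set of the 10 genes in the 3 zone comparisons, with a filled dot for the probe set used for the gene and open dots for its others. The probe sets of Fgfr1 and Fgfr3 keep 1 direction in each comparison, and 1 of the Spred1 probe sets lies at −0.01 and −0.10 in the first and the second.

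Endothelial, macrophage and fibrous markers were, like the inhibitors and Fgfr1, lowest in zone II, while osteoblast and osteoclast markers were not (in zone II relative to zone I, 4 of 6 osteoblast markers rose and 0 fell, and 2 of 7 osteoclast markers rose and 1 fell). The summed signal of 8 endothelial markers was 666 to 1237 in zone I, 247 to 521 in zone II and 2618 to 2939 in zone III, and all 8 fell in zone II relative to zone I, all 8 rose in zone III relative to zone II, and 7 rose in zone III relative to zone I. Macrophage markers summed to 1069 to 1891, 500.4 to 819 and 3988 to 4837 over zones I, II and III, and of the 5 tested 3 fell in zone II relative to zone I and 5 rose in zone III relative to zone II. Of the 7 markers of perichondrium and fibrous tissue, 6 fell in zone II relative to zone I and 6 rose in zone III relative to zone II, and 1 rose and 5 fell in zone III relative to zone I. Muscle markers summed to 259 to 1254, 197 to 472 and 168 to 349.8, and erythroid markers to 124 to 169.7, 56.2 to 214 and 159.9 to 263. None of these markers was at 0, and the lowest single value was 0.834. Their part in the profiles of Fgfr1, Spry1, Spry2, Spry4, Spred1 and Spred2 was not tested. On zone II array A, where the sums of these markers were highest for zone II, all 5 inhibitors also had the highest of their zone II values, with Spry1 at 111, Spry2 at 117, Spry4 at 37.2, Spred1 at 626 and Spred2 at 141. This was not particular to the inhibitors. Fgfr3 (3344) and Fgfrl1 (2811) were also highest for zone II on array A, while Fgfr1 (274), Fgfr2 (435) and Fgf18 (22.7) were not. The calls of the 5 inhibitors and of Fgfr1 in zone II minus I and in zone III minus II were kept without that array, but the endothelial and fibrous sums differed between the zones on the other arrays too.

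The promoters of the inhibitors are shown because Spry2 and Spred2 both had their lowest mean in zone II, and those of Fgfr3 and Fgfrl1 because both fell in zone III. RefSeq windows of 300 bases, from 250 before to 50 after an annotated start, were matched by symbol for 8 of the 10 genes (9 windows, build GRCm38.p6), and Fgfr1 and Spry4 were not matched. The windows lie on the minus strand for Spry2 (chr14:105896770-105897069) and on the plus strand for Spred2 (chr11:19924192-19924491), Fgfr3 (chr5:33721474-33721773, the first of its 2 windows) and Fgfrl1 (chr5:108693979-108694278). Capitals mark CCGGAA, the core bound by ETS factors, and GGGCGG, the GC box, on either strand, so that they also appear as their reverse complements.
Spry2: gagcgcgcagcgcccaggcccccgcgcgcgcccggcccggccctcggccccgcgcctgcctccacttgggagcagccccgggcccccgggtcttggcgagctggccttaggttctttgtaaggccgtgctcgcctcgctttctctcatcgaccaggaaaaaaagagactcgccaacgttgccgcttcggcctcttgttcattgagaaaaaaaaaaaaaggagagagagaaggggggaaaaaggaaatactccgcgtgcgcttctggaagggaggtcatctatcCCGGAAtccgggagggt
Spred2: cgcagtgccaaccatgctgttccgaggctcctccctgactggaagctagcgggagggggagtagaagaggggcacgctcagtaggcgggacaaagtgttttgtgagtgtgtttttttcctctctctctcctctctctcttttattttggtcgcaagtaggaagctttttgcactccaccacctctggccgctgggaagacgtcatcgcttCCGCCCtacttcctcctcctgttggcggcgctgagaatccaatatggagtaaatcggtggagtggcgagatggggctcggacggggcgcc
Fgfr3: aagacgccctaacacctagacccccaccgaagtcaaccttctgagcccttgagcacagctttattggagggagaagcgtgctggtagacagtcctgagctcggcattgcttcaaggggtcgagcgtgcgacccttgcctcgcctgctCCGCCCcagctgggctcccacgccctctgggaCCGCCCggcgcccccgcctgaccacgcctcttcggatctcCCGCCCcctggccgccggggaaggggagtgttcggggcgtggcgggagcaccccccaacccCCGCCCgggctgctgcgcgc
Fgfrl1: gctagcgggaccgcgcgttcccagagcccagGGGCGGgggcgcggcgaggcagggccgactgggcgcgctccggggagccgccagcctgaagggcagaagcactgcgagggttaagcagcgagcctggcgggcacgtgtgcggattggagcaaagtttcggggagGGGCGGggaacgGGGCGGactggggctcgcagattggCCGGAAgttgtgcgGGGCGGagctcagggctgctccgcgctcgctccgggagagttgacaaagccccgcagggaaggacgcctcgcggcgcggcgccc

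The ETS core CCGGAA was found in 2 of the 9 windows, those of Fgfrl1 and Spry2, and in 14.9% of all 32851 promoter windows. GGGCGG was found in 7 of 9, against 35.7% of all windows, CCAAT in 4 of 9, against 37.4%, and TATAAA and TGANTCA, the AP-1 motif, in 0 of 9, against 13.6% and 7.81%. All motifs were searched on both strands, and CCGGAA and GGGCGG do not overlap each other in the printed windows. The windows of the 8 genes held 43.7% to 78.7% G and C and 4 to 47 CpG dinucleotides, against medians of 52.7% and 7 over all windows, with Fgfr2 lowest and Fgf18 highest on both measures. GGGCGG was held 4 times by Fgfrl1, 4 and 2 times by the windows of Fgfr3, 3 times by Spred1, once each by Fgf18, Spry1 and Spred2, and 0 times by Fgfr2 and Spry2. These are matches of letters, and no binding was measured.

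Other genes of the pathway were read from lists by role. Of all tested genes, 16% rose and 25.4% fell in zone II relative to zone I. In zone III these shares were 30.8% and 22.7% relative to zone II, and 21.6% and 21.7% relative to zone I. Of 21 FGF ligands besides Fgf18, 6 passed the filter, and 4 of these fell and 0 rose in zone II relative to zone I, 3 rose and 0 fell in zone III relative to zone II, and 2 rose and 1 fell in zone III relative to zone I. Fgf9, a secreted ligand of the skeleton, averaged 55.0 ± 15.1, 15.3 ± 3.05 and 76.5 ± 10.9 over zones I, II and III (SD, n = 4). It fell by 1.82 on the log2 scale in zone II relative to zone I (limma adjusted p = 4.2e-05) and rose by 2.33 in zone III relative to zone II (adjusted p = 2.6e-06). Fgf7, a ligand made by mesenchymal cells, averaged 118 ± 30.6, 38.9 ± 12.8 and 434 ± 38.5, and rose by 3.53 in zone III relative to zone II (limma adjusted p = 1.1e-07). The zone II means of Fgf9 and Fgf7 lay under 50, where the size of a difference depends on the background. The other 2 that fell in zone II, Fgf12 and Fgf13, encode intracellular relatives that are not classical ligands. Unlike Fgf18, Fgf7 and Fgf9 had their highest mean in zone III, but of these only Fgf7 was called against zone I (1.92, limma adjusted p = 2.2e-05). For Fgf9 that difference was 0.51 and did not pass (limma adjusted p = 0.0794). Fgfr4, the remaining kinase receptor, averaged 109 ± 25.4, 109.6 ± 41.8 and 95.8 ± 26.5 and was not called in any comparison. Of the 6 tested receptor partners, 4 fell in zone II relative to zone I, and 1 rose and 2 fell in zone III relative to zone II. Between zones III and I, 3 of these fell and 0 rose. Flrt2 and Flrt3, membrane proteins that bind FGF receptors, went different ways in zone III relative to zone II, Flrt2 by 1.07 and Flrt3 by −1.76 (limma adjusted p = 3.1e-06 and 0.00012).

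Of 12 tested targets and feedback genes of ERK signalling, 1 rose and 6 fell in zone II relative to zone I, 8 rose and 1 fell in zone III relative to zone II, and 4 rose and 4 fell in zone III relative to zone I. Their medians were −0.94, 1.43 and 0.10. Dusp6, the phosphatase that switches off ERK, averaged 114 ± 21.2, 35.4 ± 8.59 and 326 ± 59.4 in zones I, II and III (SD, n = 4), a fall of 1.70 and then a rise of 3.22 on the log2 scale (limma adjusted p = 3.4e-05 and 9.8e-08). Il17rd, the membrane inhibitor Sef, averaged 109 ± 28.9, 36.5 ± 7.78 and 89.5 ± 5.23. Etv5, an ETS factor induced by FGF signalling, averaged 405 ± 84.0, 64.3 ± 16.4 and 271 ± 24.4, with log2 differences of −2.67 and 2.10 (limma adjusted p = 5.2e-07 and 1.5e-06), and its relative Etv4 stayed under a mean of 50 in each zone. Ccnd1, the cyclin that drives entry into the cell cycle, averaged 738 ± 74.3, 248 ± 29.6 and 475 ± 43.7. Other genes of the list did not follow this course. Fos and Myc were not called in any comparison, and Dusp5 rose in zone II relative to zone I (0.91, limma adjusted p = 0.0125). Dusp4 and Dusp5 had the largest rises in zone III relative to zone II, 60-fold and 18.4-fold (limma adjusted p = 1.6e-05 and 7.8e-08). Both had means under 50 in zones I and II, so these folds depend on the background. Spry3 was the member of this list that fell in zone III relative to zone II, with means of 105 ± 34.7, 108 ± 19.6 and 7.37 ± 5.38 over the 3 zones (log2 difference −4.08 in zone III relative to zone II, limma adjusted p = 1.9e-06), where the size depends on the background because the zone III signals lay far under 50. Of 15 genes of the RAS to ERK cascade, 3 rose, 4 fell and 8 did not pass in zone II relative to zone I, 9 rose and 0 fell in zone III relative to zone II, and 8 rose and 0 fell in zone III relative to zone I. The counts for zone II relative to zone I lay near the shares of all genes, of which 16% rose and 25.4% fell. Their log2 medians were −0.18, 0.51 and 0.32.

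Of 4 tested genes linked to growth arrest downstream of FGFR3, 1 rose and 2 fell in zone II relative to zone I, 2 rose and 1 fell in zone III relative to zone II, and 1 rose and 1 fell in zone III relative to zone I. For all genes, 16% rose and 25.4% fell in the first comparison, 30.8% and 22.7% in the second, and 21.6% and 21.7% in the third. Cdkn1a, the cell cycle inhibitor p21, averaged 145 ± 27.4, 1647 ± 245 and 1976 ± 237 over zones I, II and III (SD, n = 4), a rise of 3.51 in zone II relative to zone I (limma adjusted p = 2.6e-08) in the zone where Fgfr3 peaked. It gave 0.27 in zone III relative to zone II (limma adjusted p = 0.19), where Fgfr3 fell. Rbl1 and Rbl2, the pocket proteins p107 and p130, fell in zone II relative to zone I by 0.69 and 0.96 on the log2 scale (limma adjusted p = 0.0043 and 0.00021). All of these genes are read from bulk segments in which the marker sums given above also differ between zones.

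**Figure D5:**
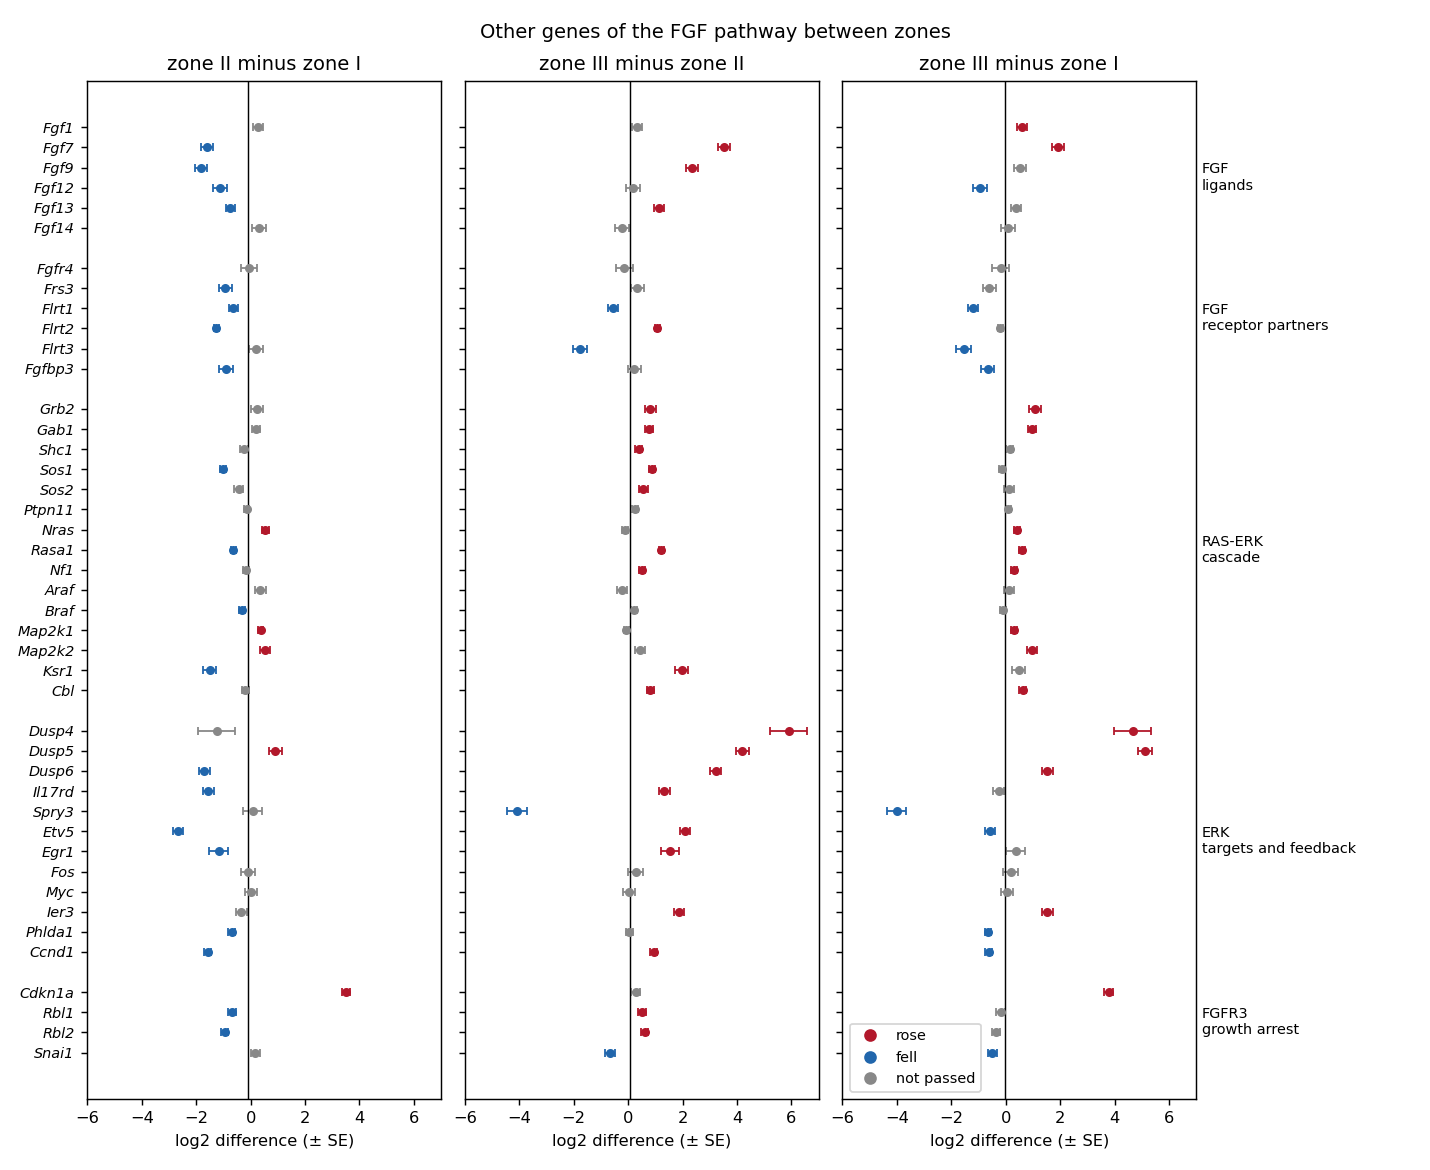
Log2 difference of the tested genes of the 5 pathway lists in the 3 zone comparisons, the later zone minus the earlier, with bars of ± 1 SE from limma, colours for genes that rose, fell or did not pass, and a line at the median of all genes. Fgf7, Fgf9, Dusp6 and Etv5 lie left of the line in zone II minus zone I and right of it in zone III minus zone II, and Spry3 lies at −4.08 in the second.

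By Pearson correlation of log2 signal over the 12 arrays, the genes most like Fgfr3 were Pygl, the liver-type glycogen phosphorylase (r = 0.992), Plac1 (0.984) and Nudt5 (0.983). Pygl averaged 1318, 2996 and 468 in zones I, II and III. Those most like Fgfr1 were Fam53c (0.984), Ctsf (0.984) and Stat3 (0.981), with Stat3 at 344, 186 and 540.3. Those most like Fgfr2 were Metrn (0.979), Dnajc9 (0.970) and Steap2 (0.965), and those most like Fgf18 were Dus4l (0.934), Dlk1 (0.931) and Ska2 (0.927). Dlk1, a membrane protein of the Notch ligand family, averaged 2646, 953 and 306. The 12 arrays fall into 3 zones, so these values mostly describe shared zone means.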

How the data were processed

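The signals were used as deposited by the authors, 1 linear intensity per probe set and array of an Affymetrix mouse genome array, scaled to a mean of 150.0 after trimming 2% at each end. The paper names GCRMA and RMA and the submitters' processing notes name RMA, but values scaled this way could come from another algorithm, not given in the sources used here. Controls, 64 in number, were left out. Of the others, 34945 were named by 1 gene symbol in the platform annotation, 932 by several and 9160 by none, and 34741 matched the gene table by Entrez ID. Some probe sets of Fgfr1, Fgfr2, Fgfrl1 and Spred1 carry a suffix that marks probes shared between transcripts.

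Probe sets that reached a mean of 50 in any zone were fitted on log2 signals, to which nothing was added, with limma 3.58.1 in R 4.3.3 (lmFit and eBayes, 3 zones, 12 arrays). Receptor ratios were compared with SciPy 1.17.1. The genes named in the text are the 10 members, the members of the pathway lists read by role, and the 3 genes most like each of 4 members. The members and lists were chosen with earlier results of these data known. Columns of single arrays were matched to zones by their labels, with 0 left unmatched. With 4 arrays per zone, their number limits the precision. On simulated data with 200 of 22255 probe sets changed, 72%, 60% and 67% of 2-fold changes were recovered for zone II minus I, III minus II and III minus I, and 21%, 18% and 30% of 1.5-fold changes. Alternatives covered the filter, the scaling, an added 16, the fit, blocks by replicate letter and by fluidics run, a 1.5-fold threshold, the choice of probe set and leaving out each array.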

Additional observations from a re-analysis of the deposited data

Results flagged for a closer look

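Of the 30 groups of 4 arrays (10 genes in 3 zones), 2 had a single array whose gap to the nearest other, divided by the range of the group, exceeded Dixon's critical value for 4 arrays, and chance alone gives about 1 such group in 20. Fgfr2 read 713 on zone I array B, against 581 to 596 on the other zone I arrays (gap over range 0.877). Spry1 read 264 on zone III array C, against 335 to 347 on the other zone III arrays (0.876). Without zone I array B, Fgfr2 gave −0.51 in zone II minus I and −0.90 in zone III minus I (limma adjusted p = 0.0117 and 0.00031), and without zone III array C, Spry1 gave 1.74 in zone III minus II and 0.94 in zone III minus I (adjusted p = 1e-05 and 0.00117).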

How the results depend on the processing

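Over 24 alternative settings, 567 of 597 values of the 30 gene differences kept their call or its absence, 29 lost the call and 1 turned round. The value that turned round was Fgfr2 in zone III minus zone II, 0.13 (limma adjusted p = 0.54) with ribosomal centring, which moves the median of all genes to −0.42, 0.60 and 0.18 in zone II minus I, III minus II and III minus I. The lost calls were those of Fgf18 and Fgfr2 in zone III minus II, Fgfr1 and Spred2 in zone III minus I, Fgfr2 in zone II minus I with median centring (−0.45, adjusted p = 0.0607) and Fgfr3 in zone II minus I with ribosomal centring (0.46, adjusted p = 0.0699).

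The count of genes that rose in zone II relative to zone I was 0 with ribosomal centring. The count that fell in zone III relative to zone II was 2 without a filter and 2 with ribosomal centring, and 2 to 4 when 1 array was left out. The count that rose in zone III relative to zone I was 2 with a threshold of 1.5-fold, 2 without a filter and 2 with median centring, and 2 to 4 when 1 array was left out, with 2 without zone I array D. With median centring Fgfr1 gave 0.43 (limma adjusted p = 0.0668) and Spred2 0.39 (adjusted p = 0.13) there. The ratio of Fgfr3 to Fgfr2 in zone III minus zone I, near 0 in the main comparison, was 0.03 with quantile normalization (exact permutation test, adjusted p = 0.914) and −0.15 to 0.08 with 1 array left out, and the 4 against 3 arrays left then cannot give a p below 0.0571.

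The labels do not say whether a letter marks 1 litter in all zones. Arrays of 1 letter in different zones correlated at −0.13 to 0.26 (median 0.15, 12 pairs) in their deviations from the zone means, and arrays of different letters at −0.30 to 0.23 (median −0.05, 36 pairs), so that pairing by letter was neither shown nor excluded. With the letter as a replicate block, Fgf18 in zone III minus II gave −1.31 (limma adjusted p = 0.0503), the count of genes that fell there was 3, and 0 other calls of the 30 changed. For the receptor ratios, a sign-flip test over the 4 letter pairs as a replicate block cannot give a p below 0.125, so no ratio could pass it, and the ratio of Fgfr3 to Fgfr1 gave that exact p in each comparison, at 1.81, −3.35 and −1.54 for zone II minus I, III minus II and III minus I.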
